A study of Mus musculus with 3 samples.

Results

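The chemokine system of the neonatal mouse sinoatrial node region was followed through 10 genes, Cxcl12, Cxcr4, Ackr3, Ccl2, Ccl7, Ccl11, Cxcl1, Cxcl2, Cx3cl1 and Cx3cr1. They were taken by gene symbol and make up 10 of the 28001 features of the deposited gene lists, each listed under 1 gene identifier. All 10 had at least 1 unique molecular identifier (UMI, a tag that marks 1 captured RNA molecule) in each of the 3 libraries. The mice were of strain ICR and genotype HCN4H2BGFP, a reporter in which the pacemaker channel gene Hcn4 drives a green fluorescent protein, and were taken at postnatal day 2. Dissociated cells were run on a 10X Genomics single-cell kit as 3 libraries. The GFP-positive and GFP-negative libraries held sinoatrial node region cells sorted by HCN4-GFP fluorescence. The RA library held unsorted cells and is titled RA, although its tissue label names the sinoatrial node region as well. The sort follows the reporter, not a cell type, and the number of animals pooled is not given in the sources used here. Each group is 1 library, so there was no test between conditions, and every interval below is an exact 95% interval that covers counting error only.

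After removal of barcodes with fewer than 500 genes or more than 50% mitochondrial UMIs, 3289, 3032 and 1289 cells remained in the GFP-positive, GFP-negative and RA libraries, with medians of 12429, 11417 and 14143 UMIs per cell. Cells were put in a class when at least 4 of the 8 markers of that class had 2 or more UMIs. The GFP-positive library was mostly endothelial (2454 cells), with 461 mesothelial cells and 163 cardiomyocytes, so the cardiomyocytes that the reporter is known for were a small part of it. The GFP-negative library held 1905 fibroblasts, 183 endothelial cells, 104 macrophages, 121 other leukocytes and 175 smooth muscle cells or pericytes, and the RA library 622 fibroblasts, 243 endothelial cells and 92 macrophages. The 18, 7 and 8 barcodes that pairs of libraries shared were not removed. Haemoglobin made up 0.0340%, 4.88% and 7.70% of UMIs in the GFP-positive, GFP-negative and RA libraries. An airway and epithelial marker set summed to 399 CPM (counts scaled to an equal total of UMIs) in the endothelial cells of the GFP-positive library against 3.24 and 0.934 CPM in those of the GFP-negative and RA libraries, and its part in the values below was not tested.

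Chemokines are small secreted proteins that bind receptors coupled to G proteins and direct the movement of cells. Cxcl12 signals through Cxcr4 and is taken up by Ackr3, a scavenger receptor that does not couple to G proteins, and the balance of the trio shapes coronary vessel growth. Ccl2 and Ccl7 recruit monocytes, Ccl11 recruits eosinophils, Cxcl1 and Cxcl2 recruit neutrophils, and Cx3cl1, a chemokine anchored in the membrane, binds Cx3cr1 on resident macrophages and monocytes.

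In the RefSeq order of protein-coding genes, Ccl2, Ccl7 and Ccl11 follow each other on chromosome 11 with 0 genes between neighbours, and Cxcl1 and Cxcl2 lie side by side on chromosome 5. Both Cxcl genes are textbook targets of the transcription factor NF-kB, so the last 100 bases before their annotated starts are shown. The longest run that both stretches shared was 14 bases long, and its first 10, GGGAATTTCC, a motif of the kB type, are in capitals. The Cxcl1 run is chr5:90891145-90891244 and the Cxcl2 run is chr5:90903799-90903898, both on the plus strand of GRCm38.p6 and both from RefSeq.
Cxcl1: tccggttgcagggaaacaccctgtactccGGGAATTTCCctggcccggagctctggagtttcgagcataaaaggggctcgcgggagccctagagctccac
Cxcl2: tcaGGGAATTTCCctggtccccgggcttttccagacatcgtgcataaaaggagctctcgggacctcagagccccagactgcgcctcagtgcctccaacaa
The motif lay at positions -71 to -62 in Cxcl1 and -97 to -88 in Cxcl2, counted from the start. Searched on both strands (GGGAATTTCC and its reverse complement GGAAATTCCC) in the 250 bases before each start, it was in 28 of 32851 promoter windows, or 0.0852%. Of the 10 genes, 7 had a window in the table (not Ccl2, Ccl7 and Ccl11), and the motif was in 2 of those 7. The motif was taken from these same genes, and a match is a description of the letters that does not show binding.

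Levels below are CPM, a class's UMIs of a gene scaled to the same total of UMIs of all genes in every class and library, and a difference is a log2 ratio of 2 such levels with 0.5 UMIs added to each sum. A gene was measured in a comparison when both sums together held at least 10 UMIs. It is called higher or lower when the log2 ratio passed 0.58 in either direction and its interval left out equality, and the share of all measured genes called that way is given as the background. Cells of 1 library are not replicates of each other.

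**Figure D1:**
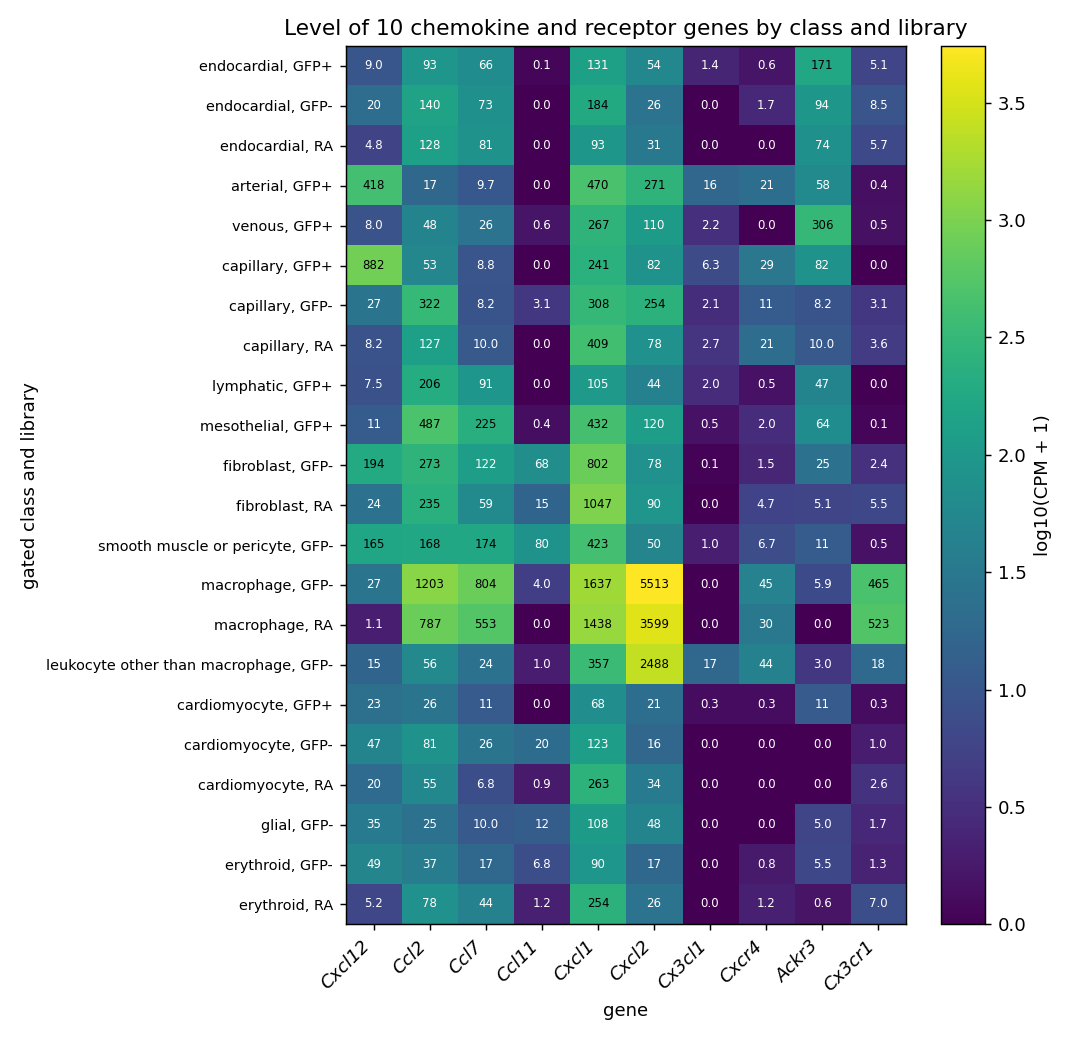
Heat map of the level of each of the 10 genes (columns) in each class and library (rows), coloured by log10(CPM + 1) with the CPM printed in each cell. Cxcl2 and Cx3cr1 are brightest in the macrophage rows, Cxcl12 in the capillary and arterial rows of the GFP-positive library and in the fibroblasts of the GFP-negative library, and Ackr3 in the venous row.

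Cxcl12, the ligand of Cxcr4 and Ackr3, was concentrated in a small set of endothelial cells of the GFP-positive library. It stood at 882 CPM (818 to 950) in 63 capillary cells and at 418 CPM (400 to 437) in 253 arterial cells. Of these, 20 capillary and 144 arterial cells had at least 2 more markers of their own group than of any other. In venous cells Cxcl12 was 8.04 CPM, in endocardial cells 9.0 CPM and in lymphatic cells 7.53 CPM. The capillary and arterial intervals did not overlap the venous, endocardial and lymphatic ones, which overlapped one another. The 486 endothelial cells without a leading group also held Cxcl12, with 568 UMIs against 104 in the 970 venous cells. Of these 486 cells, 10 held 10 or more UMIs. A UMI of Cxcl12 was found in 50.6% of arterial, 44.4% of capillary and 8.97% of venous cells. The cardiomyocytes of the same library stood at 22.9 CPM, above the venous, endocardial and lymphatic levels, so they are not a class without the gene. A Cxcl12 UMI was found in 28.2% of them at a median of 19019 UMIs per cell. Medians were 16070 in arterial, 10053 in capillary and 10876 in venous cells. With every cell thinned to 2000 UMIs these shares were 28.5% (23.0 to 34.4), 28.6% (17.9 to 41.3), 1.65% and 1.84%, so the venous share lay at the cardiomyocyte level and the arterial and capillary shares lay above it. The 5% of endothelial cells with the most Cxcl12 held 91.4% of its UMIs, and 78 of 2454 cells held 10 or more, with a highest value of 117.

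The capillary cells of the other libraries carried little of this ligand. They had 26 UMIs in 79 cells of the GFP-negative library (26.8 CPM) and 9 UMIs in 73 cells of the RA library (8.15 CPM), against 699 UMIs in the GFP-positive library. The log2 ratio of the GFP-positive level was 5.02 (4.48 to 5.67) over the GFP-negative level and 6.68 (5.82 to 7.89) over the RA level. Of the capillary cells in the GFP-positive library 18 held 10 or more UMIs, so the difference did not rest on 1 cell. The dissociation stress list (12 immediate-early and heat shock genes) summed to 8421, 4639 and 5697 CPM in the capillary cells of the GFP-positive, GFP-negative and RA libraries. The 6 arterial markers summed to 800.1, 215 and 285 CPM in the same cells. The part of either in the difference was not tested.

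Cxcr4, the signalling receptor, followed the same 2 endothelial groups at far fewer UMIs. Arterial cells of the GFP-positive library had 99 UMIs (21.3 CPM, 17.3 to 25.9) and capillary cells 23 UMIs (29.0 CPM, 18.4 to 43.6). Endocardial cells had 5 UMIs, lymphatic cells 1 UMI, and the 970 venous cells 0 UMIs, which allows a share of up to 0.309% of venous cells with a UMI. The venous level was at least 28.1-fold lower than that of the other endothelial cells, taking 3 UMIs over the group as the limit of a count of 0. Capillary cells of the GFP-negative and RA libraries had 11.3 and 20.8 CPM, so the GFP-positive interval overlapped those of both others, and the ratio to the GFP-negative level was 1.32 (0.26 to 2.54) on the log2 scale. In arterial cells 45 of the 51 cells with a Cxcr4 UMI also had a Cxcl12 UMI. Cxcr4 was found in 35.2% of the 128 arterial cells with Cxcl12 and in 4.80% of the rest, and in capillary cells in 46.4% and 2.86%. These shares are as sequenced, and cells with more UMIs are likelier to show both genes. Thinned, 1.98% of arterial cells kept a Cxcr4 UMI, too few to repeat the split.

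Outside the endothelium Cxcr4 was highest in leukocytes. Macrophages had 45 UMIs (44.6 CPM, 32.5 to 59.7) in the GFP-negative and 28 UMIs (30.1 CPM, 19.98 to 43.5) in the RA library, and the other leukocytes of the GFP-negative library 44 UMIs (43.8 CPM). Fibroblasts had 1.501 and 4.68 CPM in these libraries, where erythroid cells had 0.850 and 1.16 CPM. The macrophage and leukocyte levels overlapped one another and lay above both. As sequenced, 21.2% of GFP-negative and 18.5% of RA macrophages had a UMI, against 0.752% and 1.96% of erythroid cells. Median depths were 9016 and 9448 UMIs in macrophages and 16642 and 16412.5 in erythroid cells.

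Ackr3, the scavenger of Cxcl12, was highest in the endothelial cells gated as venous. The groups are named by the number of markers present, not by summed level. In the GFP-positive venous group capillary markers summed to 4178 CPM and venous ones to 2547 CPM. Endocardial markers summed to 1861 CPM in the arterial group, against 1841 CPM in the endocardial group. Ackr3 stood at 306 CPM (297 to 316) in venous, 171 CPM (162 to 181) in endocardial, 82.0 CPM (63.3 to 105) in capillary, 58.0 CPM (51.3 to 65.3) in arterial and 47.2 CPM (38.1 to 57.8) in lymphatic cells of the GFP-positive library. Venous and endocardial levels were each clear of their neighbours, while capillary and arterial intervals overlapped, as did arterial and lymphatic ones. The top 5% of all endothelial cells held 23.8% of its UMIs, against 91.4% for Cxcl12, and the top 5% of venous cells held 19.1% of theirs. A UMI was found in 83.4% of venous and 73.5% of endocardial cells, against 18.4% of cardiomyocytes, and after thinning in 42.2% (39.0 to 45.3), 27.4% (23.7 to 31.4) and 2.45%. In the arterial group 32.8% of the cells with a Cxcl12 UMI and 64.0% of those without had an Ackr3 UMI as sequenced, and 6.94% and 11.6% after thinning, the thinned share among cells with Cxcl12 resting on 5 cells.

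Endocardial cells carried Ackr3 in all libraries, at 94.0 CPM (70.8 to 122) in the GFP-negative and 74.3 CPM (58.7 to 92.7) in the RA library. The GFP-positive level was higher by a log2 ratio of 0.85 (0.48 to 1.28) and 1.20 (0.88 to 1.55). The stress list summed to 4300 CPM in GFP-positive endocardial cells against 2714 and 2544 CPM in the others. The venous markers summed to 1530.05 CPM there against 1078 and 1091 CPM, and the capillary markers to 741 CPM against 135 and 151 CPM. The part of these lists was not tested, and after thinning no member was called in endocardial cells against the GFP-negative library. In capillary cells Ackr3 was 82.0 CPM in the GFP-positive library and 8.24 and 9.96 CPM, on 8 and 11 UMIs, in the GFP-negative and RA libraries.

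**Figure D2:**
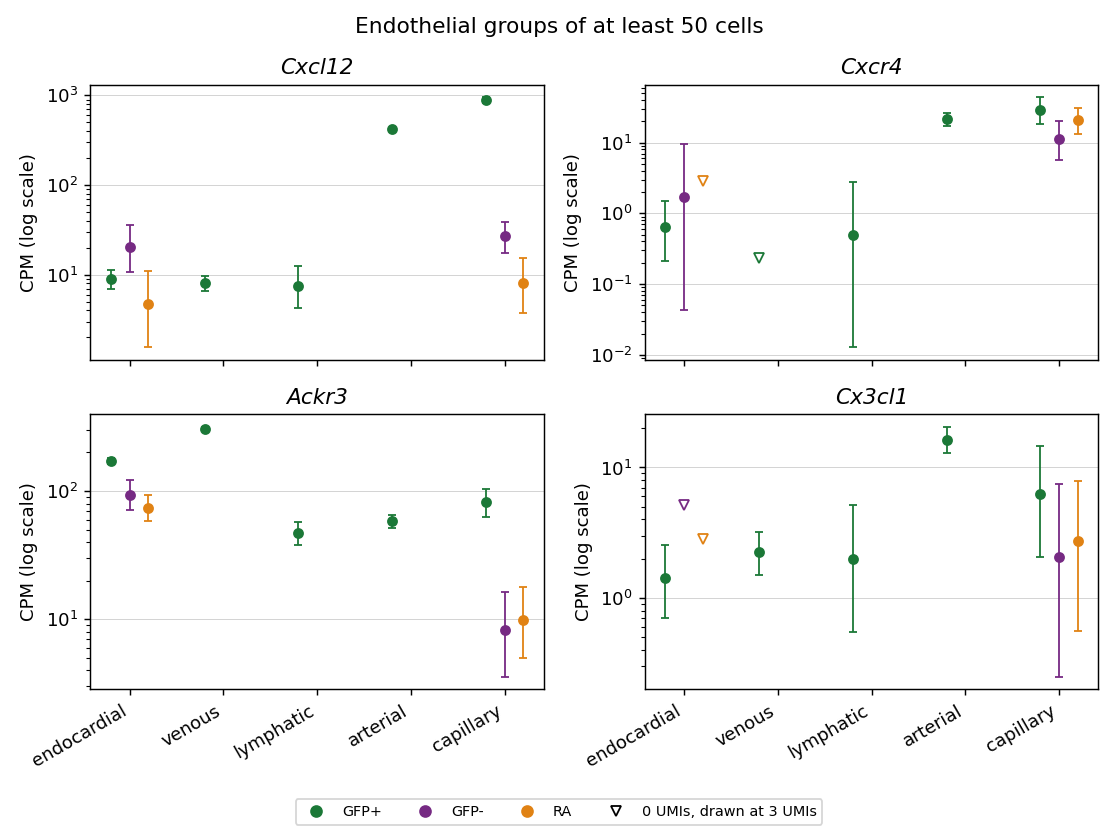
Levels of Cxcl12, Cxcr4, Ackr3 and Cx3cl1 in CPM on a log axis by endothelial group of at least 50 cells and library, with 95% Poisson intervals, and open triangles for 0 UMIs drawn at the level of 3 UMIs. Cxcl12 is at 882 and 418 CPM in the capillary and arterial groups of the GFP-positive library, while Ackr3 peaks at 306 CPM in the venous group.

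Each endothelial group of the GFP-positive library was also set against the other endothelial cells of that library, with log2 ratios in parentheses. In arterial cells 9 of 10 genes were called (background 20%). Cxcr4 (3.78), Cxcl12 (3.14), Cx3cl1 (2.72), Cxcl2 (1.43) and Cxcl1 (1.08) were higher, and Ackr3 (-1.92), Ccl2 (-2.12), Ccl7 (-2.16) and Cx3cr1 (-1.83) lower. In venous cells 8 of 10 were called (background 9.95%), with Ackr3 (1.17) and, on 8 against 2 UMIs, Ccl11 (2.56) higher and Cxcl12 (-4.19), Cxcr4, Ccl2 (-0.71), Ccl7 (-0.87), Cx3cl1 (-1.28) and Cx3cr1 (-2.28) lower. The cells set against each group include the other groups. Of the 60 Cx3cr1 UMIs in these endothelial cells, 40 lay in endocardial cells, and 3 cells held 10 or more. The lower Cx3cr1 calls of the arterial and venous groups were made on few UMIs against those cells. After thinning 5 genes were called in venous cells.

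Endocardial cells had 8 of 10 genes called (background 17.8%), with Cx3cr1 (2.81), Ccl7 (1.06) and Ccl2 (0.62) higher and Cxcl12 (-3.74), Cxcr4 (-2.86), Cxcl1 (-1.14), Cxcl2 (-1.39) and Cx3cl1 (-1.80) lower. Capillary cells had 5 (background 13.3%), with Cxcl12 (3.49) and Cxcr4 (3.05) higher and Ackr3 (-1.28), Ccl7 (-2.08) and Cxcl2 (-0.59) lower. Lymphatic cells had 7 (background 21.2%), with Ccl2 (1.80) and Ccl7 (1.33) higher and Cxcl12 (-3.71), Cxcr4 (-2.54, 1 UMI), Ackr3 (-2.13), Cxcl1 (-1.32) and Cxcl2 (-1.54) lower. The medians of the 10 log2 ratios, in the order arterial, venous, endocardial, capillary and lymphatic, were -0.30, -0.79, -0.99, -0.21 and -1.43, and those over all measured genes lay between -0.09 and 0.06. After thinning 4 genes were called in endocardial and 3 in capillary cells. No share over all genes after thinning is given, so these drops cannot be read as particular to the 10 genes. Of the 12 stress genes 11 were lower in endocardial and 6 in lymphatic cells, and 7 were higher in venous cells, and their part in these contrasts was not tested.

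Fibroblasts of the GFP-negative library also carried Cxcl12. They held 4518 UMIs, or 194 CPM (188 to 200), and the smooth muscle cells and pericytes of that library held 165 CPM (147 to 184). RA fibroblasts held 232 UMIs, or 23.6 CPM (20.7 to 26.9), a log2 ratio of 3.03 (2.85 to 3.23) and an 8.19-fold difference in level. The libraries did not overlap, and 149 cells with 10 or more UMIs in the GFP-negative library stood against 2 in RA. As sequenced 44.3% and 17.8% of fibroblasts had a UMI, at medians of 11830 and 15477 UMIs per cell, against 21.8% and 4.90% of erythroid cells at 16642 and 16412.5. After thinning the shares were 19.9% (18.2 to 21.8) and 4.02% (2.62 to 5.88) of fibroblasts and 3.76% and 1.96% of erythroid cells, so the RA fibroblast share lay within the erythroid interval. The erythroid barcodes of both libraries also carried a median of 4 of the 8 fibroblast markers.

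Other members differed between the fibroblasts of these libraries. Ccl11, the eosinophil chemokine, was 68.5 CPM (65.1 to 71.9) in the GFP-negative and 14.9 CPM (12.6 to 17.5) in the RA library, a log2 ratio of 2.199 (1.96 to 2.46). Ackr3 was 24.7 and 5.09 CPM, a ratio of 2.26 (1.86 to 2.72), and Ccl7 was 122 and 59.4 CPM, a ratio of 1.04 (0.91 to 1.17). Cxcr4 (-1.64) and Cx3cr1 (-1.22) were lower in the GFP-negative fibroblasts, on 35 and 55 UMIs. Macrophage markers summed to 33.6 CPM in GFP-negative and 77.4 CPM in RA fibroblasts, and their part in the leukocyte receptors was not tested. Cxcl1 (-0.38), Ccl2 (0.21) and Cxcl2 (-0.21) lay between the limits. Of the 9 measured members 6 were called (background 18.1%), with a median log2 ratio of 0.21 against -0.05 over all measured genes. Stress genes summed to 8857 and 5806 CPM, 6 of 12 being higher and 0 lower in the GFP-negative library, and their part was not tested.

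The makeup of the fibroblasts differed between the libraries. A UMI of Tcf21, a transcription factor of epicardium-derived fibroblasts, was found in 1074 (56.4%) of GFP-negative and 599 (96.3%) of RA fibroblasts. In the GFP-negative library the cells without Tcf21 held 297 CPM of Cxcl12 and 139 CPM of Ccl11, against 132 and 25.9 CPM in cells with it. Cells with Tcf21 in the RA library held 22.7 CPM of Cxcl12 and 15.0 CPM of Ccl11. Among cells with Tcf21 the Cxcl12 level was higher in the GFP-negative library, and most Ccl11 of the GFP-negative fibroblasts lay in cells without Tcf21. Median depths were 13341.5 UMIs with Tcf21 and 10132 without in the GFP-negative library, and 15757 with Tcf21 in RA. A Tcf21 UMI is likelier to be seen in deeper cells. The part of makeup in the difference between libraries was not tested. In the 401 GFP-negative fibroblasts with at least 2 of the adventitial genes Ly6a, Clec3b and Penk, Cxcl12 was 345 CPM against 151 CPM in the rest, and Cxcl1 was lower, at 497 against 887 CPM. These subsets were drawn after the data had been seen, and Tcf21 is also 1 of the 8 fibroblast markers.

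**Figure D3:**
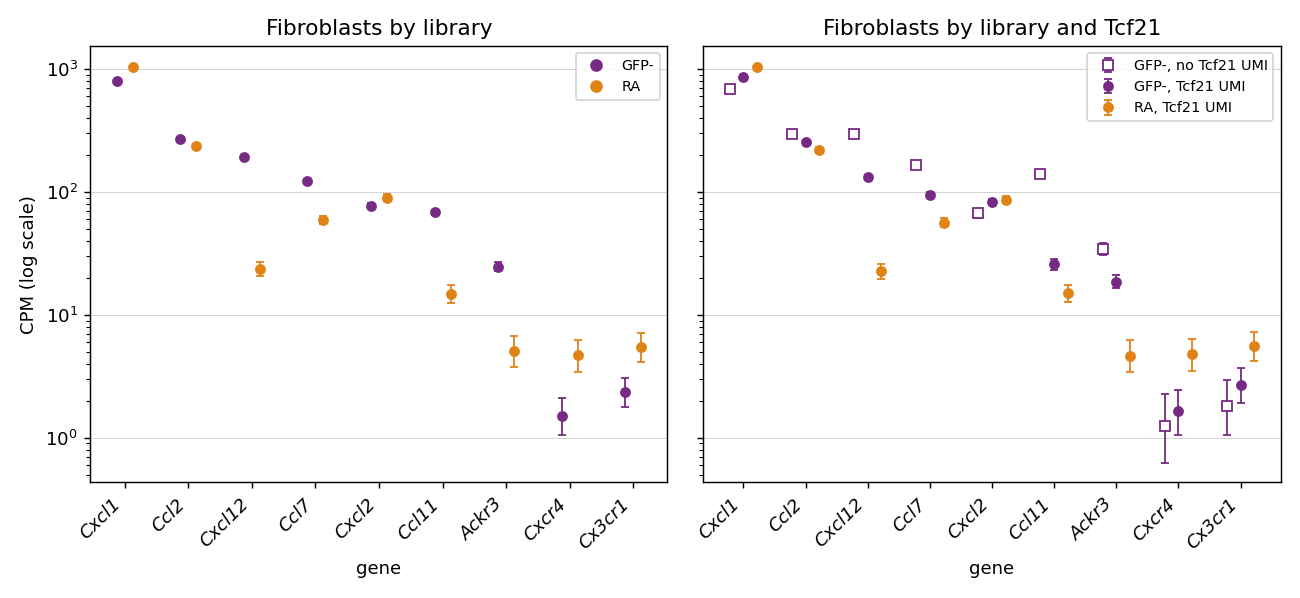
Levels of the genes other than Cx3cl1 in fibroblasts in CPM on a log axis with 95% Poisson intervals. They are split by library on the left and by presence of a Tcf21 UMI on the right. Cxcl12 is at 194 CPM in the GFP-negative and 23.6 CPM in the RA library, and Cxcl1 is at 802 and 1047 CPM.

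Against the other gated cells of the GFP-negative library, fibroblasts had 8 of 10 genes called (background 37.1%), with Ccl11 (1.75), Cxcl12 (1.70), Cxcl1 (1.07) and Ackr3 (0.88) higher. In the RA library 9 were called (background 40.5%), with Ccl11 (2.50), Cxcl1 (1.31) and Cxcl12 (0.89) higher. The classes compared here are different cell types. With haemoglobin and mitochondrial genes left out of the total, the median over all genes moved from 0.12 to -0.15 and from 0.19 to -0.09, and the share of calls that were higher moved from 49.3% to 30.9% and from 56.1% to 37.7%.

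Ccl2 and Ccl7, the monocyte chemokines, were led by macrophages. Ccl2 held 1214 UMIs (1203 CPM) in GFP-negative and 733 UMIs (787 CPM, 731 to 846) in RA macrophages, and Ccl7 held 812 UMIs (804 CPM, 750 to 862) and 515 UMIs (553 CPM, 506 to 603). Mesothelial cells, the outer lining of the heart and the body cavities, had 487 CPM (472 to 503) of Ccl2 and 225 CPM (215 to 236) of Ccl7. Fibroblasts had 273 and 235 CPM of Ccl2 in the GFP-negative and RA libraries. For Ccl2 the order macrophage, mesothelial, fibroblast held with no overlap of intervals, but the mesothelial cells come from the GFP-positive library and these fibroblasts from the others. The mesothelial class was also not cleanly apart from fibroblasts. Its cells carried a median of 5 of the 8 fibroblast markers, and only 1 of the 461 met no other class's gate. Fibroblast markers summed to 16204 CPM in them, against 6341 CPM for mesothelial markers. In the 43 GFP-positive fibroblasts with 0 or 1 of Ly6a, Clec3b and Penk, Ccl2 was 467 CPM (407 to 534), which overlaps the mesothelial interval. In the endothelium of the GFP-positive library Ccl2 was highest in lymphatic cells, at 206 CPM (187 to 227), and lowest in arterial cells, at 17.2 CPM (13.6 to 21.4). Ccl7 was 90.9 CPM in lymphatic, 9.66 CPM in arterial and, on 7 UMIs, 8.83 CPM in capillary cells.

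In GFP-negative macrophages 61.5% had a Ccl2 UMI and 52.9% a Ccl7 UMI, against 26.3% and 21.8% of the deeper erythroid cells. After thinning the macrophage shares were 47.1% (37.2 to 57.2) and 33.7% (24.7 to 43.6) against 3.76% and 1.504%. In RA macrophages the thinned shares were 32.6% and 22.8%, against 7.84% and 2.94% of erythroid cells. The top 5% of mesothelial cells held 62.8% of their Ccl2 UMIs, with 290 in a single cell. The shares with Ccl7 stood apart by whether Ccl2 was present. After thinning, Ccl7 was found in 55.1% of GFP-negative macrophages with Ccl2 and in 14.5% of those without. The corresponding shares were 60.0% and 4.84% in RA macrophages, 44.0% and 7.25% in mesothelial cells and 28.2% and 7.09% in GFP-negative fibroblasts.

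Ccl11, the neighbour of Ccl7 on the chromosome, had another order over cell classes. It was 79.5 CPM (67.5 to 93.1) in the smooth muscle cells and pericytes and 68.5 CPM in the fibroblasts of the GFP-negative library. Macrophages had 4 and 0 UMIs in the GFP-negative and RA libraries, and the 2454 endothelial cells of the GFP-positive library 10. Over the 25 class and library combinations of at least 50 cells, the Pearson correlation of log2(CPM + 10) was 0.80 for Ccl2 with Ccl7 but 0.12 for Ccl2 with Ccl11 and 0.21 for Ccl7 with Ccl11. These combinations share 3 libraries and contain endothelial subgroups of the same cells, so the values are a description. The top 5% of fibroblasts held 84.3% and 93.8% of Ccl11 UMIs in the GFP-negative and RA libraries. After thinning, Ccl11 was found in 16.9% of GFP-negative fibroblasts with Ccl7 and in 3.77% of the rest, and in 25% and 4.64% of the smooth muscle cells and pericytes, where the first share rests on 6 cells. Split by Ccl2, the fibroblast shares were 9.12% and 4.35%. In thinned RA fibroblasts, 1 cell held both Ccl7 and Ccl11. As sequenced, a UMI of Ccl11 was present in 15.7% and 6.43% of fibroblasts and in 7.52% and 1.96% of erythroid cells.

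Mesothelial cells of the GFP-positive library had 9 of 10 genes called against the other gated cells (background 40%), with Ccl2 (2.67), Ccl7 (2.47) and Cxcl1 (0.62) higher and the other 6 lower, and 5 were called after thinning. All but 1 of the 461 mesothelial cells also met another class's gate. Their stress genes summed to 9954 CPM, against 7420 CPM in the endothelial cells of that library.

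Cxcl1 and Cxcl2, the neutrophil chemokines whose upstream sequences are shown above, differed in their order over cell types. Cxcl1 held 18688 UMIs (802 CPM, 790 to 813) in GFP-negative and 10281 UMIs (1047 CPM) in RA fibroblasts. Macrophages had 1652 UMIs (1637 CPM) and 1339 UMIs (1438 CPM). Mesothelial cells had 432 CPM and arterial cells 470 CPM (451 to 490), ahead of venous cells with 267 CPM (258 to 276), capillary cells with 241 CPM (208 to 278), endocardial cells with 131 CPM and lymphatic cells with 105 CPM. The venous and capillary intervals overlapped, and the other endothelial groups were clear of their neighbours, although the lower end for endocardial cells, 123 CPM, and the upper end for lymphatic cells, 121 CPM, nearly met. The gene was also present at 90.1 and 254 CPM in the erythroid barcodes of the GFP-negative and RA libraries, so shares of cells with a UMI are given beside the erythroid ones. In fibroblasts the share was 68.2% and 80.5% as sequenced and 38.7% (36.5 to 41.0) and 43.9% (39.9 to 47.9) after thinning. In erythroid cells it was 53.4% and 57.8% as sequenced and 10.5% and 18.6% after thinning.

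Cxcl2 was concentrated in macrophages and in monocytes or dendritic cells. It held 5564 UMIs (5513 CPM) in GFP-negative and 3352 UMIs (3599 CPM) in RA macrophages, against 77.5 and 89.8 CPM in the fibroblasts of these libraries. Other leukocytes of the GFP-negative library had 2488 CPM, which came from 37 monocytes or dendritic cells at 5505 CPM, with 9 neutrophils at 3693 CPM, while 33 T or NK cells had 140 CPM. After thinning, 70.2% (60.4 to 78.8) of GFP-negative and 50% (39.4 to 60.6) of RA macrophages kept a UMI, against 3.76% and 6.86% of erythroid cells. The number of macrophages with 10 or more UMIs was 65 of 104 and 36 of 92. In arterial cells Cxcl2 reached 271 CPM (257 to 287), above venous cells with 110 CPM and endocardial cells with 54.3 CPM. Thinned macrophages with a Cxcl1 UMI had a Cxcl2 UMI in 97.9% of cells in the GFP-negative library and 77.8% in RA, against 47.4% and 38.5% of those without, and arterial cells in 42.9% against 14.2%. Over the 25 combinations the correlation of the pair was 0.72.

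Cx3cr1, the fractalkine receptor and a mark of resident macrophages, was concentrated in that class. Macrophages held 469 UMIs (465 CPM, 424 to 509) in the GFP-negative and 487 UMIs (523 CPM, 478 to 572) in the RA library, which overlapped. The 21 macrophages of the GFP-positive library had 11 UMIs (40.0 CPM), but that number of cells is under the minimum of 50 used for comparisons. A UMI was found in 86.5% and 84.8% of macrophages and in 2.26% and 9.80% of erythroid cells, and after thinning in 51.9% and 51.1% against 0% and 1.96%. Fibroblasts had 2.36 and 5.50 CPM, and in the RA library 23 of their 54 UMIs lay in 1 cell. The higher endocardial level in the GFP-positive library (5.14 CPM) rested on 40 UMIs in 6 of 543 cells.

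Cx3cl1, its ligand, was sparse. Arterial cells of the GFP-positive library held 76 UMIs (16.3 CPM, 12.9 to 20.4) in 53 cells, with at most 4 in a cell. Venous cells had 29 UMIs (2.24 CPM), endocardial cells 11 and capillary cells 5. The arterial interval lay above the venous and endocardial ones and overlapped the capillary one. A UMI was found in 20.9% of arterial cells and 0.613% of cardiomyocytes, and after thinning in 2.77% and 0%. The other leukocytes of the GFP-negative library had 17 UMIs (16.9 CPM, 9.86 to 27.1) in 7 of 121 cells. Those leukocytes also had 18 UMIs of Cx3cr1 (17.9 CPM). Macrophages had 0 UMIs of Cx3cl1 in the GFP-negative and RA libraries, and the correlation of ligand and receptor over the 25 combinations was -0.14.

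**Figure D4:**
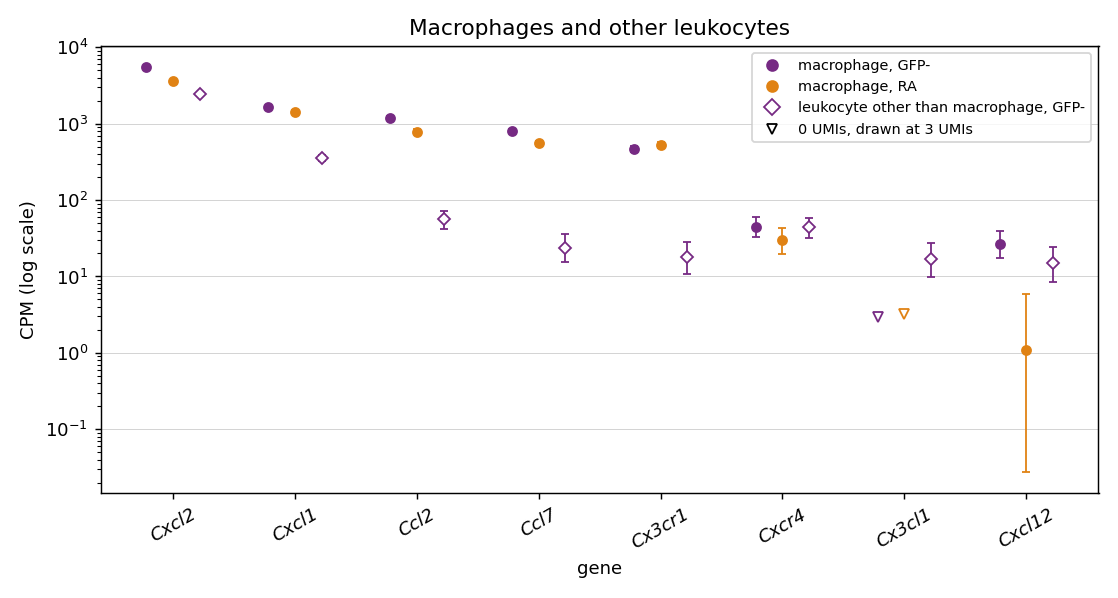
Levels of Cxcl2, Cxcl1, Ccl2, Ccl7, Cx3cr1, Cxcr4, Cx3cl1 and Cxcl12 in CPM on a log axis with 95% Poisson intervals. The classes are GFP-negative macrophages, RA macrophages and the other leukocytes of the GFP-negative library. Cxcl2 is highest in both macrophage groups, at 5513 and 3599 CPM, and Cx3cr1 is at 465 and 523 CPM there against 17.9 CPM in other leukocytes.

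Against the other gated cells, 9 of 10 genes were called in macrophages of both libraries (background 35.8% in GFP-negative, 38% in RA). The same 6 were higher, with log2 ratios in GFP-negative and RA macrophages of 7.41 and 6.25 for Cx3cr1, 5.22 and 4.94 for Cxcl2, 2.94 and 3.45 for Ccl7, 3.66 and 2.50 for Cxcr4, 2.38 and 2.02 for Ccl2, and 1.34 and 0.97 for Cxcl1. Cxcl12, Ackr3 and Ccl11 were lower. The other leukocytes of the GFP-negative library also had 9 called (background 38.3%), with Cx3cl1 (6.24), Cxcr4 (3.62) and Cxcl2 (3.36) higher and Cxcl12, Ackr3, Ccl2, Ccl7, Ccl11 and Cxcl1 lower. Between the libraries, 3 of 7 measured members were called in macrophages (background 11.6%). Ccl2 (0.61, 0.48 to 0.75) and Cxcl2 (0.61, 0.55 to 0.68) were higher in the GFP-negative library, close to the limit of 0.58, while Ccl7 (0.54), Cxcr4 (0.56), Cxcl1 (0.19) and Cx3cr1 (-0.17) were not called. Cxcl12 was called on 27 UMIs against 1, a log2 ratio of 4.08 (2.04 to 9.99). The fibroblast markers summed to 2936 and 2094 CPM in these macrophages, and their part in the Cxcl12 value was not tested. The median of the 7 was 0.56 against -0.07 over all genes. Of 12 stress genes 4 were higher and 0 lower, with sums of 11980 and 10320 CPM.

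**Figure D5:**
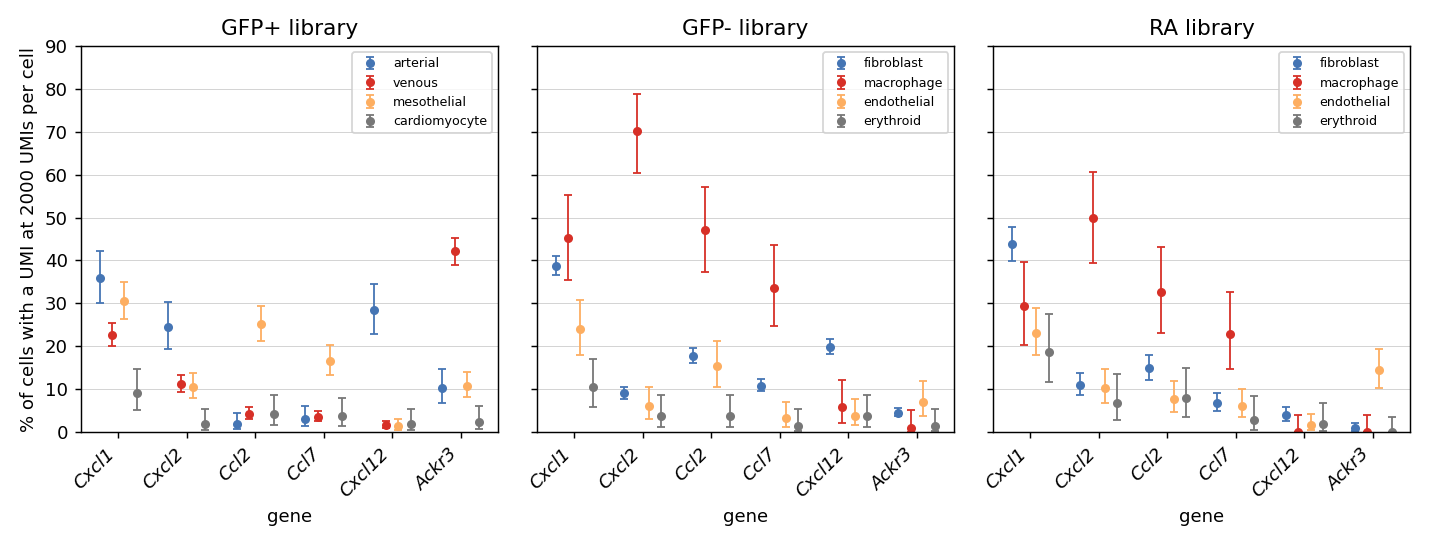
Share of cells with a UMI of Cxcl1, Cxcl2, Ccl2, Ccl7, Cxcl12 and Ackr3 after thinning every cell to 2000 UMIs. Shares are in percent, with Clopper-Pearson intervals, by class and library. Cxcl2 reaches 70.2% of GFP-negative macrophages and Ackr3 reaches 42.2% of venous cells, while the erythroid and cardiomyocyte shares are drawn for comparison.

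For the endothelial class as a whole, levels were 96.4, 26.9 and 12.5 CPM of Cxcl12 in the GFP-positive, GFP-negative and RA libraries, 199, 40.7 and 57.9 CPM of Ackr3, and 67.7, 223 and 209 CPM of Ccl2. Cxcl12 and Ackr3 were thus highest and Ccl2 lowest in the GFP-positive library. In RA endothelial cells 1 cell held 266 of the 672 Ccl2 UMIs, and in GFP-negative ones 1 cell held 111 of 482. Against RA 6 of 10 genes were called (background 23.3%), with Cxcl12 (2.94), Ackr3 (1.77) and Cxcl2 (0.84) higher and Cxcr4 (-0.99), Ccl2 (-1.63) and Cx3cr1 (-1.58) lower. Against the GFP-negative library 6 were called as well (background 18.3%), with Ackr3 (2.28), Cxcl12 (1.83) and, on 152 against 3 UMIs, Cx3cl1 (1.41) higher and Ccl2 (-1.72), Cx3cr1 (-1.36) and Cxcr4 (-1.26) lower. The Cx3cl1 ratio turned to -0.29 after thinning to 2000 UMIs and to -0.76 with cells of a second class left out. Both comparisons use the GFP-positive cells. The groups differed in makeup, since 253 of the GFP-positive endothelial cells were arterial and 970 venous, against 1 and 16 in the GFP-negative library and 7 and 43 in RA. Capillary cells, which also carried Cxcr4, were 63 of 2454, 79 of 183 and 73 of 243 in the GFP-positive, GFP-negative and RA libraries. The part of makeup in these calls was not tested. Macrophage markers summed to 11.2 CPM in the GFP-positive endothelial cells and 85.7 and 87.8 CPM in the GFP-negative and RA ones, and 10 of 12 stress genes were higher than in RA. The part of either was not tested.

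The libraries were also compared within endothelial groups, starting with capillary cells. Against RA 4 of 7 measured genes were called (background 19.2%), with Cxcl12 (6.68) and Ackr3 (2.99) higher and Ccl2 (-1.25) and Cxcl1 (-0.76) lower. Against the GFP-negative library 5 of 7 were called (background 16.3%), with Cxcl12 (5.02), Ackr3 (3.24) and Cxcr4 (1.32) higher and Ccl2 (-2.59) and Cxcl2 (-1.62) lower. The Cxcl2 value rested on 1 cell with 187 of the 247 UMIs of the GFP-negative capillary group, and another cell held 111 of its 313 Ccl2 UMIs. After thinning 2 capillary calls were made against each library. In endocardial cells 2 of 8 were called against RA (background 15.5%), Ackr3 (1.20) and Cxcl2 (0.77), both higher, and 1 after thinning. Against the GFP-negative library 4 of 8 were called (background 9.12%), with Cxcl2 (1.04) and Ackr3 (0.85) higher and Cxcl12 (-1.24) and Ccl2 (-0.60) lower, and 0 were called after thinning. The Cxcl12 value rested on 12 UMIs in the GFP-negative endocardial cells (20.5 CPM), where erythroid barcodes had 48.9 CPM. Of these 52 endocardial cells 3 held 61.0% of the Ccl2 UMIs, and 9 met no other class's gate.

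The genes whose levels over the 25 combinations were most like those of each member are given as a description. For Cxcl12 they were Sod3, an extracellular antioxidant enzyme (r = 0.70), Col8a1 (0.68) and Timp4 (0.68), and for Cxcr4 Mndal (0.89), Tnfaip3 (0.88) and Rgs2 (0.87). For Ackr3 they were Net1 (0.94), Bace2 (0.93) and Thbd, the thrombomodulin gene (0.93). Ccl2 was most like Fcgrt (0.81), Ccl7 (0.80) and Dab2 (0.79), and Ccl7 most like Fcgrt (0.85), Ctsf (0.83) and Dse (0.83), so Fcgrt led both lists. Ccl11 was most like Epha3 (0.96), Galnt16 (0.96) and Wisp2 (0.94). For Cxcl1 the list was Myd88, an adaptor of Toll-like receptors (0.87), Lgals3bp (0.81) and Tnfsf9 (0.80), and for Cxcl2 it was Cyba (0.96), Rasa4 (0.94) and Cd14 (0.94). Cx3cl1 was most like S1pr4 (0.84), Atp2a3 (0.79) and D16Ertd472e (0.78), and Cx3cr1 most like Tbxas1 (0.99), C3ar1 (0.98) and Scimp (0.98).

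Of a list of 29 other chemokine ligands 25 were listed under 1 identifier, and of 20 other receptors 19 had UMIs. Against the other gated cells macrophages had 14 of 19 measured ligands higher and 2 lower in the GFP-negative library (median log2 ratio 4.54 against -0.28 over all genes, background 35.8%) and 12 of 18 higher and 2 lower in RA (5.09 against -0.29, background 38%). Pf4 was 3154 and 1873 CPM, Ccl4 4212 and 3479 CPM, Ccl3 1892 and 1409 CPM and Ccl12 395 and 229 CPM in these macrophages. Ccr2, the receptor of Ccl2 and Ccl7, was 47.6 and 111 CPM. In the other leukocytes of the GFP-negative library 11 of 15 measured receptors were higher and 1 lower (5.26 against -0.27, background 38.3%), among them Cxcr6 (119 CPM), Ccr2 (117 CPM) and Ccr7 (76.7 CPM).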

How the data were processed

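Single-cell RNA was measured in 3 libraries, 1 for each group. The authors deposited whole-number UMI counts per gene and barcode, not normalized, and the submitters' processing notes name Cell Ranger (version not given in the sources used here) and the build mm9. The members and all lists were chosen with earlier results of these data known, and gate details and fibroblast subsets were set after the files had been seen. Barcodes with fewer than 500 genes or over 50% mitochondrial UMIs were removed (46 and 11 in the GFP-positive, 240 and 4 in the GFP-negative, 153 and 8 in the RA library). The libraries held 50416748, 38204709 and 19975326 UMIs before this filter.

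A class needed 4 of 8 markers with at least 2 UMIs each. A cell meeting the fibroblast gate and another gate went to the other class, except that between fibroblast and smooth muscle or pericyte the higher marker count won, and otherwise a lead of 2 markers was required. Cells with no such lead were called mixed (65, 195 and 53 in the GFP-positive, GFP-negative and RA libraries) and, with ungated cells, left out (3.71%, 9.23% and 6.52%). No doublet caller was run, the mixed rule standing in its place. An endothelial or leukocyte group was the one with the most of its 6 markers present, at least 2, without a tie, and 486 GFP-positive endothelial cells had none. The gates cut ranges: 151 GFP-positive endothelial cells and 97 GFP-negative and 11 RA fibroblasts sat at the minimum of 4 markers. Classes needed 50 cells. The 48 GFP-positive fibroblasts were under this minimum, and no ratio was taken for them as a class. The Ccl2 level of 43 of them is given beside the mesothelial one as a description.

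UMIs were summed per class and library and given as CPM with exact Poisson intervals. Ratios had exact conditional binomial intervals, shares had Clopper-Pearson intervals, all at 95%, and cells were thinned to 2000 UMIs with a fixed seed; 0 cells were shallower. Genes of like pattern were the 3 with the highest Pearson r among genes at 50 CPM or more, for members with 100 UMIs or more. Other chemokine genes were nameable at 20 CPM or more in a class of 50 cells. The scripts were tested on simulated counts. Alternatives are given in the closing section, and edgeR was used for TMM factors alone. Tools were Python 3.11.15, numpy 2.4.6, scipy 1.17.1, pandas 2.3.3, matplotlib 3.10.9 and edgeR 4.0.16. Upstream sequences are of GRCm38.p6, from RefSeq, and no coordinates of the files were used.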

Additional observations from a re-analysis of the deposited data

Results flagged for a closer look

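Several ratios had opposite signs in different libraries. None of these differences was tested, and the other cells in each comparison differ in makeup between libraries.

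Cxcl12 in endothelial cells against the other gated cells had a log2 ratio of 2.66 in the GFP-positive library, -2.58 in the GFP-negative library and -0.68 in RA. In the GFP-negative library the other cells are mostly the fibroblasts that hold 194 CPM of the gene.

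Ackr3 in fibroblasts against the other gated cells had a log2 ratio of 0.88 in the GFP-negative library and -2.27 in RA.

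Ccl2 in endocardial cells against the other endothelial cells had a log2 ratio of 0.62 in the GFP-positive library, -0.85 in the GFP-negative library and -0.96 in RA. In capillary cells it was 1.18 in the GFP-negative library and -0.99 in RA. One GFP-negative capillary cell held 111 of 313 UMIs.

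Cxcl2 in capillary cells against the other endothelial cells had a log2 ratio of -0.59 in the GFP-positive and 3.01 in the GFP-negative library, where 187 of 247 UMIs lay in 1 cell.

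The barcodes removed by the cell filter also held the 10 genes, at summed levels of 94.0, 75.0 and 84.1 CPM in the GFP-positive, GFP-negative and RA libraries.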

How the results depend on the processing

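No paired analysis was possible because each group is 1 library. Under the alternatives 1098 values of log2 ratios stayed within the counting interval of the value reported, 232 left it in the same direction or without a call, and 2 of called ratios reversed. Both reversals were Cx3cl1 in endothelial cells, GFP-positive against GFP-negative, where the 1.41 reported became -0.76 with cells of a second class left out and -0.29 with every cell thinned to 2000 UMIs; the GFP-negative cells hold 3 UMIs. Of the 1098 values that stayed, 176 came from the alternative without a UMI minimum, which uses the same sums and cannot move a ratio. Thinning left 65 ratios the same, moved 80 and reversed 1. Leaving out cells of a second class left 60 the same, moved 59 and reversed 1. Levels were the same in 1006 values and moved in 264, and shares of cells were the same in 26 and moved in 144, all by thinning. For counts of called members 132 alternative values stayed within 1.5 times and 9 did not. The share of all genes called after thinning is not given beside these counts. Thinning, which leaves fewer UMIs, took the number called to 2 and 2 for capillary cells of the GFP-positive library against RA and GFP-negative (from 4 and 5), to 1 and 0 for endocardial cells against them (from 2 and 4), and, within the GFP-positive library, to 5 for venous (from 8), 4 for endocardial (from 8), 3 for capillary (from 5) and 5 for mesothelial cells (from 9). Leaving out the 5% deepest cells, an alternative added after the data were seen like the lead of 2 markers for endothelial groups, gave 1 for endocardial cells against RA. The alternatives were TMM factors, totals without haemoglobin and mitochondrial genes, stricter cell filters, 1 more marker, cells with a second class left out, no UMI minimum and thinning. Depth limits Cx3cl1, Cxcr4 and, outside fibroblasts and mural cells, Ccl11, whose sums are small.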

Other observations

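Among chemokine genes outside the 10, the interferon-inducible ligand Cxcl10 was lower in the endothelial cells of the GFP-positive library (14.7 CPM, 519 UMIs) than in those of the GFP-negative (125 CPM) and RA libraries (179 CPM). Cxcl9 was 20.2 CPM in RA endothelial cells and 0.0850 CPM in GFP-positive ones. Of 17 measured ligands of the list, 9 were lower and 1 higher in GFP-positive than in RA endothelial cells, with a median log2 ratio of -1.82 against 0.04 over all genes and a background of 23.3% called. In fibroblasts Cxcl13, the B cell chemokine, was 36.9 CPM in the GFP-negative and 2.44 CPM in the RA library, a log2 ratio of 3.89.

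In the endothelial groups of the GFP-positive library, the atypical receptor Ackr1 was 27.7 CPM in venous cells and between 2.15 and 6.53 CPM in the other named groups. Ackr4 was 40.6 CPM in endocardial cells, where the GFP-negative and RA libraries had 44.4 and 44.8 CPM. Dpp4, a protease that cleaves Cxcl12, was 95 CPM in the endocardial cells of the GFP-positive library, which hold 9.0 CPM of Cxcl12, and 3.01 CPM in its arterial cells. Cxcl17 was 29.1 CPM in lymphatic cells.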
